A study of Mus musculus with 14 samples.

Results

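Interferon-inducible GTPases were followed on 14 one-colour whole mouse genome arrays, 1 array per RNA sample. The members were the 10 gene names *Mpa2l*, *Gvin1*, *Gbp1*, *Gbp2*, *Gbp3*, *Igtp*, *Iigp1*, *Iigp2*, *Ifi47* and *Tgtp*, and a probe belonged to a member if its gene name on the array was identical. By this rule 9 members had 12 of the 41174 non-control probes: *Gvin1* had 3 probes, *Tgtp* had 2 and each of the other 7 had 1. No probe carried the name *Gbp3*. Several names on the array are old: RefSeq (GRCm38.p6) gives the accession of the *Mpa2l* probe as Gbp6, that of *Gbp1* as Gbp2b, that of *Iigp2* as Irgm2 and that of *Tgtp* as Tgtp1, and it gives the accession behind the array name *Gbp4* as Gbp3.

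All cells were *p65*(-/-) mouse embryonic fibroblasts (MEFs), which lack the NF-κB subunit p65 (RelA), and had received a viral vector with myc-tagged p65 or the vector alone. The 5 groups were cells with wild type p65 without TNFα (0 h, n = 3), the same cells after 3 h of TNFα at 30 ng/ml (n = 3), and, also after 3 h of TNFα, cells with the triple mutant KTR (n = 3), cells with the double mutant K314/315R (n = 2) and cells with the empty vector pTV (n = 3). In both mutants lysines that can be acetylated were replaced by arginine, and KTR carries an exchange at K310 beside those of K314/315R. Cells were pools selected with Blasticidin and were starved overnight. RNA of the replicates was isolated on different days, and each kind of cell was 1 pool, so that a difference between pools and an effect of the introduced p65 cannot be told apart.

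These GTPases are among the proteins that mouse cells make most strongly in response to interferons, above all interferon-γ. The guanylate-binding proteins (GBPs, here *Gbp1*, *Gbp2* and *Mpa2l*) and the immunity-related GTPases (IRGs, here *Igtp*, *Iigp1*, *Iigp2*, *Ifi47* and *Tgtp*) gather on the vacuoles of intracellular pathogens such as *Toxoplasma* and help to disrupt them, and *Gvin1* codes for a very large interferon-inducible GTPase. Among IRGs, *Igtp* and *Iigp2* belong to the regulatory class that keeps effector members such as *Iigp1* and *Tgtp* inactive on host membranes. Transcription of the family is known to depend on promoter elements, the gamma-activated sequence (GAS) and the interferon-stimulated response element (ISRE), which IRF1 binds, and *Irf1* is itself a target of NF-κB.

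A promoter window of 250 bases before to 50 bases after the annotated RefSeq start was available here for 6 of the 9 members with probes. *Mpa2l*, *Gvin1* and *Iigp1* were not among the windows used, although RefSeq gives their positions. The windows were searched on both strands for the ISRE core GAAANNGAAA, the GAS letters TTCNNNGAA and the κB consensus. The ISRE core was in 5 of these 6 windows and in 3.44% of all 32851 promoter windows, GAS was in 3 of the 6 and in 8.3% of all, and the κB consensus was in 1 of the 6 and in 8.46% of all. The 150 bases that end just before the start are printed for the 5 members with an ISRE core, so that the matches counted here can be seen in place. *Gbp1*, printed here, was not measured above background, and *Ifi47*, which was, has no match. Capitals mark ISRE core and GAS matches, which do not overlap each other.
*Gbp2* (chr3:142620513-142620662, + strand): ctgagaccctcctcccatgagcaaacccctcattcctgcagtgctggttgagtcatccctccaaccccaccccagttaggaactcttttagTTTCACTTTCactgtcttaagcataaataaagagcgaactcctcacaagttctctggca
*Gbp1*, now Gbp2b (chr3:142594697-142594846, + strand): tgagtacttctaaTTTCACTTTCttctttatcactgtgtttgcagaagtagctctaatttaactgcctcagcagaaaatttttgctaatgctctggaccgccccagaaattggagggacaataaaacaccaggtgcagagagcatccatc
*Igtp* (chr11:58199406-58199555, + strand): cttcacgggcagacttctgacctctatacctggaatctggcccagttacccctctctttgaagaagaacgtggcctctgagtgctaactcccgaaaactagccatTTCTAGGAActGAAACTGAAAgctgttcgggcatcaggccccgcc
*Iigp2*, now Irgm2 (chr11:58214827-58214976, + strand): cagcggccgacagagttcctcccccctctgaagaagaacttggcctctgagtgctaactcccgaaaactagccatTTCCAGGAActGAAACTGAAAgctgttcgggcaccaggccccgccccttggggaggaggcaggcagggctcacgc
*Tgtp*, now Tgtp1 (chr11:48992247-48992396, − strand): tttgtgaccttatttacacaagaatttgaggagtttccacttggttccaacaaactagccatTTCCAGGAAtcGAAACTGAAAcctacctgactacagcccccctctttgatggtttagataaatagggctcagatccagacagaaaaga

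The 3 IRG genes shared the same arrangement, a GAS match followed closely by the ISRE core GAAACTGAAA. Counted from the annotated start, the ISRE core began at -34 in *Igtp*, at -64 in *Iigp2* and at -77 in *Tgtp*. The GBP genes *Gbp2* (-59) and *Gbp1* (-137) held the core on the opposite strand, TTTCACTTTC as printed, with no GAS match in the window. The κB match of *Gbp2* began 8 bases downstream of the start and lies outside the printed stretch. None of the searched letters was in the window of *Ifi47*, and a match is a description of sequence, not a site of binding.

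Signals are given as log2 of the processed signal relative to the 75th percentile of the same array, so that 0 is that percentile and a difference of 1 is a doubling. The 75th percentiles lay between 966.7 and 1442 intensity units, 49.9 to 57.7% of spots were well above background, and arrays of a group correlated at r = 0.984 to 0.995. Arrays of replicates 1 to 3 of the other 4 groups shared slides 1 to 3 by number, whereas both K314/315R arrays lay alone on slide 4. The spots of both K314/315R arrays were also extracted with another software version (9.1.3.1, against 9.1.1.1 for the other groups). Slide, software version and cell line thus cannot be told apart for K314/315R. All 8 fibroblast markers (*Col1a1*, *Vim* and others) stood well above background on all arrays of 4 groups and 7 of them on all KTR arrays, with summed levels of 9.95 to 10.4 on the log2 scale, whereas 6 macrophage markers summed to -2.92 to -2.29 with at most 2 above background on all arrays of a group, at most 1 of 4 T cell and 1 of 3 B cell markers did so, and none of 3 endothelial and 2 epithelial markers was well above background on any array. Of the fibroblast markers *Pdgfra* and *Pdgfrb* were higher and *Thy1* was lower with wild type p65 than with pTV, and their part in the results was not tested. The brighter of 2 *Rela* probes lay at 1.52 to 1.54 in wild type cells at 3 h, at 0.97 to 1.04 in wild type cells at 0 h, at 0.79 to 1.54 in KTR, at 1.54 to 1.87 in K314/315R and at 1.00 to 1.34 in pTV cells; where these probes lie relative to the deleted part and to the introduced cDNA was not examined, so they do not check the labels.

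The first comparison asked which members needed p65 in TNFα-treated cells. Every member measured above background was far higher, at 1 probe or more, with wild type p65 than with the empty vector. The effector IRG genes *Iigp1* and *Tgtp* (probe 1) and the GBP gene *Mpa2l* were not well above background on any pTV array and lay near the 75th percentile with wild type p65. *Gbp2*, *Igtp*, *Iigp2*, *Ifi47* and *Gvin1* were detected without p65 too and were between 5.05-fold (*Gvin1*) and 41.5-fold (*Gbp2*) higher with it. In such bulk RNA, fewer cells that express a gene and less RNA per cell cannot be told apart.

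Of the 12 probes 11 were tested, since a probe had to stand well above background on all arrays of 1 group or more. In wild type over pTV cells 10 of these 11 were called higher (limma, adjusted p under 0.05 and more than 2-fold) and none lower, against 3.59% of all 22172 tested probes called higher. *Mpa2l*, *Gvin1*, *Iigp1*, *Ifi47* and *Tgtp* are on a list that the authors drew from these same arrays. It required more than 2-fold higher signal in wild type than in pTV cells, so for these genes the excess was built in. The median log2 fold change of the 11 was 3.70, against -0.03 over all tested probes. Of the 11, 7 stood well above background on all 14 arrays, and all 7 of these were called, with a median of 3.53. The same 10 did not overlap between the groups, with every wild type array above every pTV array, which held for 16.1% of all tested probes. Within each of the slides 1 to 3 these 10 were also higher, as were 27.7% of all.

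**Figure D1:**
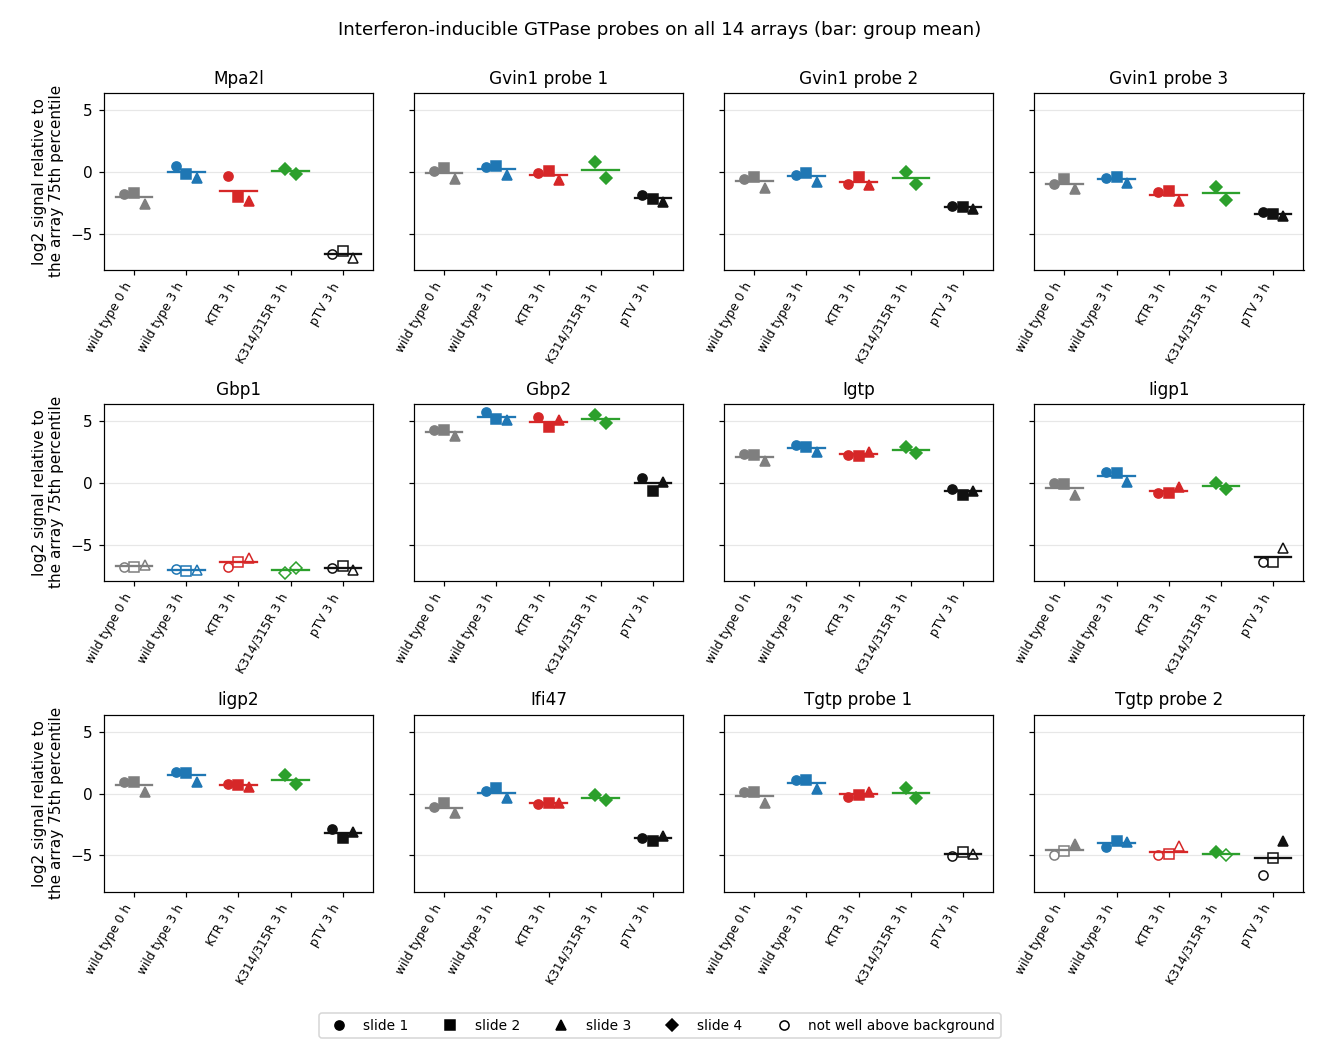
Log2 signal relative to the array's 75th percentile (y axis) of each of the 12 probes in the 5 groups (x axis), with 1 point per array, shapes for the slides, open points for spots not well above background and bars for group means. The pTV points lie below all others for 10 probes, *Gbp1* is open on all 14 arrays, and *Mpa2l* in KTR cells splits into 1 array near wild type and 2 near the 0 h level.

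*Mpa2l*, the GBP now named Gbp6, lay at -6.63, -6.42 and -6.94 on the pTV arrays and at 0.49, -0.16 and -0.48 on the wild type arrays at 3 h. No pTV spot was well above background, so the difference is a bound: wild type cells were at least 26.1-fold higher (adjusted p = 9.1e-07). Such bounds set the mean of the bright group against, on each dim array, the dimmest signal of any probe that stood well above background or the probe's own signal if that was higher. The adjusted p printed beside a bound belongs to the limma fit of the signals as read and is not a test of the bound. *Iigp1*, an effector IRG, lay at -6.37, -6.38 and -5.28 on the pTV arrays and at 0.86, 0.75 and 0.05 with wild type p65, at least 39.7-fold higher (adjusted p = 1.1e-07). Probe 1 of *Tgtp*, another effector IRG, lay at -5.08, -4.73 and -4.90 in pTV cells and at 1.13, 1.08 and 0.33 in wild type cells, at least 47.9-fold higher (adjusted p = 7.1e-08). For all 3 genes the wild type arrays and the pTV arrays were far apart on every slide.

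*Gbp2* was bright in all cells with p65 and still well above background without it. Its pTV arrays read 0.41, -0.65 and 0.07 and its wild type arrays read 5.72, 5.17 and 5.06 (log2 fold change 5.37 ± 0.30 SE, adjusted p = 1.7e-07). *Iigp2*, a regulatory IRG, lay at -2.89, -3.61 and -3.10 in pTV cells and at 1.78, 1.68 and 0.95 in wild type cells, 25.5-fold higher. The other regulatory IRG, *Igtp*, lay at -0.48, -1.02 and -0.64 against 3.07, 2.92 and 2.46, an 11.5-fold difference. In each of these genes the lowest wild type array was more than 2 log2 units above the highest pTV array.

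*Ifi47*, an IRG without a match in its promoter window, rose 13.0-fold, from -3.62, -3.83 and -3.40 in pTV cells to 0.17, 0.42 and -0.34 in wild type cells. The 3 probes of *Gvin1* moved alike, by 5.05-fold, 5.61-fold and 6.90-fold, which were the smallest called differences of the family. Probe 1 of *Gvin1* lay at -1.86, -2.18 and -2.41 in pTV cells and at 0.37, 0.47 and -0.27 in wild type cells. Each *Gvin1* probe was well above background on all pTV arrays.

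Exceptions were *Gbp1* and the second *Tgtp* probe. *Gbp1* was not well above background on any of the 14 arrays, where it read between -7.28 and -6.05. Probe 2 of *Tgtp* was well above background on all 3 wild type arrays at 3 h, on 1 at 0 h, on 1 of K314/315R, on 1 of pTV and on none of KTR, so it was tested only through the wild type 3 h group. For that reason it is left out of the counts and medians of the comparisons among cells with p65, which cover the other 10 tested probes. It read -6.55, -5.24 and -3.82 in pTV cells and -4.29, -3.85 and -3.94 in wild type cells, groups that overlapped (log2 fold change 1.18, adjusted p = 0.170). With the replicate number as a block its adjusted p was 0.0482 and it was called (background 3.64%), as it was without pTV replicate 3 (adjusted p = 0.00727). The filter favoured this direction, since only the wild type 3 h arrays let the probe in. No conclusion is drawn from these calls, and the probe stays in the counts and medians over pTV with this limit. RefSeq lists a near-identical copy, Tgtp2, and probe sequences were not used here, so which copy either probe reads was not examined.

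Cells with either mutant also differed from pTV cells at nearly every member. KTR cells were called higher than pTV cells at 10 of 11 probes (background 3.32%), with a median log2 fold change of 2.99 against 0.02 over all tested probes. K314/315R cells were called higher at 10 of 11 (background 4.18%), with a median of 3.33 against -0.01. *Tgtp* probe 2 was the exception in both. Without K314/315R replicate 1 the call of *Gvin1* probe 3 over pTV was lost (2.19-fold, adjusted p = 0.0502), which left 9 calls. These comparisons share the pTV arrays with the one above. *Iigp1* was at least 17.0-fold higher in KTR and at least 22.2-fold higher in K314/315R cells than in pTV cells. For *Gbp2* the differences were 31.7-fold and 36.6-fold, and for *Igtp* 7.94-fold and 10.1-fold. The level without p65 was thus below that of either mutant for regulatory IRGs, effector IRGs and GBPs alike.

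**Figure D2:**
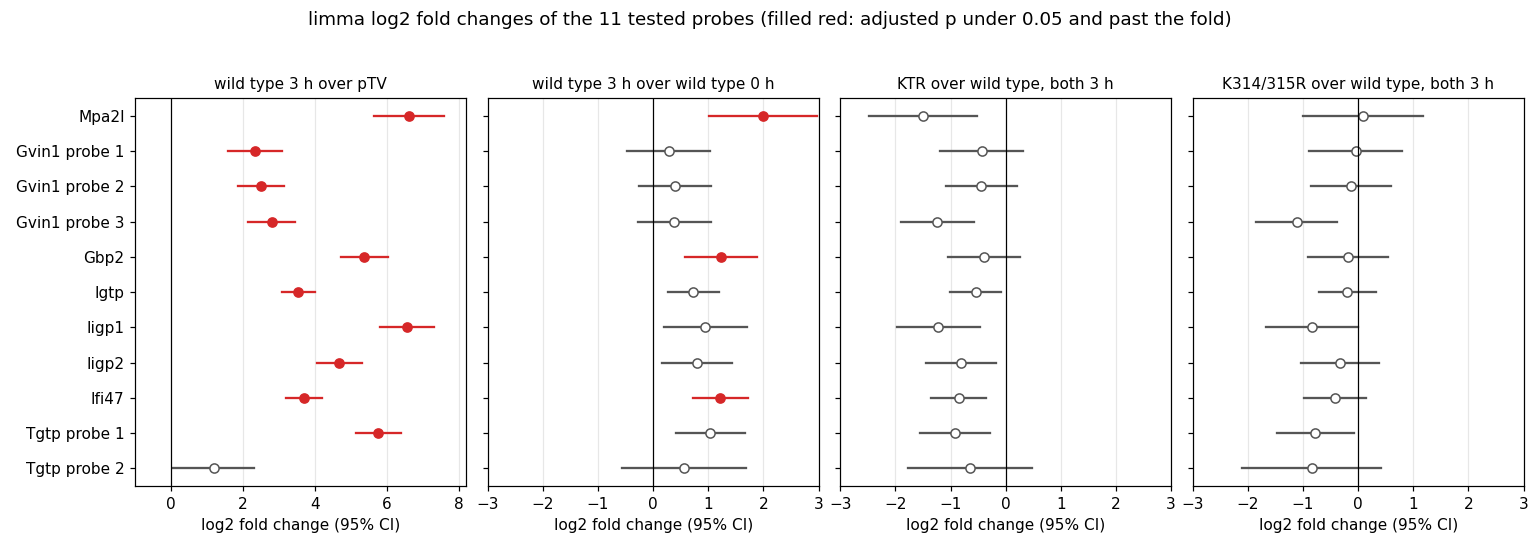
Log2 fold changes with 95% confidence intervals (x axis) of the 11 tested probes (rows) in 4 comparisons, filled and red where the adjusted p was under 0.05 and the fold was past its threshold. In wild type over pTV 10 intervals lie above 1 and are filled, 3 probes are filled for TNFα, and none for either mutant over wild type.

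The second comparison asked what 3 h of TNFα changed in cells with wild type p65. Wild type cells read far above the pTV arrays already without TNFα, although pTV cells were measured only with TNFα and this difference was not tested: at 0 h *Gbp2* read 4.26, 4.21 and 3.78, *Igtp* read 2.31, 2.21 and 1.74, and both lay above all their pTV arrays by more than 2 log2 units. TNFα added a smaller rise, which passed the test for *Mpa2l*, *Gbp2* and *Ifi47*. Thus 3 of 10 probes were called higher (more than 1.8-fold) and none lower, against a background of 1.12% called higher, and the median over the 10 was 0.87, against -0.04 over all tested probes.

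*Mpa2l* rose the most. It read -1.79, -1.74 and -2.60 at 0 h against 0.49, -0.16 and -0.48 at 3 h, a 3.98-fold rise (log2 fold change 1.99 ± 0.45 SE, adjusted p = 0.026). *Gbp2* rose 2.35-fold from the 0 h values above (adjusted p = 0.037). *Ifi47* rose 2.33-fold, from -1.06, -0.75 and -1.59 (adjusted p = 0.011). In these 3 genes all TNFα-treated arrays lay above all untreated ones, as they did in 6 of the 10 probes and in 13.4% of all tested probes.

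*Tgtp* probe 1 (2.05-fold, adjusted p = 0.066), *Igtp* (1.66-fold, adjusted p = 0.081), *Iigp1* (1.93-fold, adjusted p = 0.167) and *Iigp2* (1.73-fold, adjusted p = 0.167) did not pass. With the replicate block *Tgtp* probe 1 passed (adjusted p = 0.0436, background 1.24%), and *Igtp* had an adjusted p of 0.0361 but stayed under 1.8-fold. The 3 *Gvin1* probes differed by 1.22-fold to 1.31-fold, with adjusted p of 0.580 to 0.771, and the 95% interval of the brightest ran from -0.47 to 1.04 on the log2 scale.

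The TNFα differences varied from slide to slide to a different degree in each gene. On slides 1, 2 and 3 *Mpa2l* differed by 2.27, 1.58 and 2.12 on the log2 scale, *Gbp2* by 1.47, 0.95 and 1.28, and *Ifi47* by 1.23, 1.17 and 1.25. Of the probes that were not called, *Tgtp* probe 1 differed by 1.02, 0.99 and 1.09, *Igtp* by 0.75, 0.71 and 0.72, and *Gvin1* probe 3 by 0.50, 0.14 and 0.51. All 10 probes were higher with TNFα within each of the 3 slides, as were 26.1% of all tested probes. With the replicate block *Mpa2l*, *Gbp2* and *Ifi47* stayed called (adjusted p = 0.0032, 0.0039 and 0.0090). In the fit without the block the calls rested on few arrays. Without wild type 3 h replicate 2 no probe was called, without wild type 3 h replicate 1 or any of the 0 h arrays *Ifi47* alone was called, without wild type 3 h replicate 3 *Mpa2l*, *Ifi47* and *Tgtp* probe 1 were called, and without pTV replicate 3, which enters only the shared estimate of the spread, *Gbp2* was lost and 2 calls were left.

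**Figure D3:**
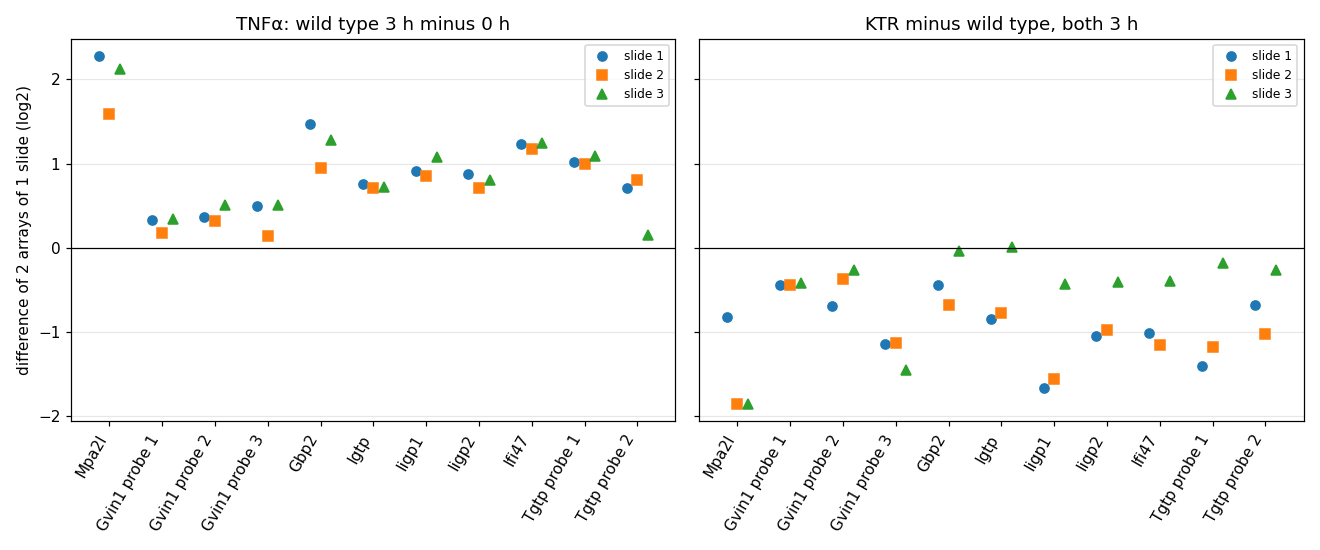
Difference in log2 signal between the 2 arrays of a slide (y axis) for the 11 tested probes (x axis), for wild type at 3 h minus 0 h on the left and for KTR minus wild type, both at 3 h, on the right; each point is 1 slide. All points on the left lie above 0, and on the right the points of slide 3 lie nearest to 0 for the IRG genes and *Gbp2*, while *Mpa2l* shows its smallest difference on slide 1.

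The third comparison asked whether the KTR mutant changed the members after TNFα. Means were lower in KTR than in wild type cells for all 10 probes, by 1.31-fold for *Gbp2* up to 2.84-fold for *Mpa2l*, but none passed the test in limma. The background of called lower was 0.14% of all tested probes, and 5 of the 10 had an unadjusted p under 0.05 with more than 1.8-fold lower signal, against 0.812% of all. These 5 were *Mpa2l*, *Gvin1* probe 3, *Iigp1*, *Ifi47* and *Tgtp* probe 1. Their genes are on the authors' list as lower in KTR than in wild type cells, so the share of all is no independent background. The median log2 difference was -0.83, against 0.06 over all tested probes.

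In 5 probes, *Iigp1*, *Iigp2*, *Ifi47*, *Tgtp* probe 1 and *Gvin1* probe 3, all 3 KTR arrays read lower than all 3 wild type arrays, which held for 4.95% of all tested probes. *Iigp1* read -0.81, -0.81 and -0.39 in KTR cells against 0.86, 0.75 and 0.05 in wild type cells (log2 fold change -1.22, 95% interval -1.97 to -0.47, adjusted p = 0.238). *Ifi47* read -0.83, -0.73 and -0.74 (log2 fold change -0.85, adjusted p = 0.214), and *Tgtp* probe 1 read -0.27, -0.10 and 0.15 (log2 fold change -0.92, adjusted p = 0.305). The KTR arrays of these IRG genes thus lay near the untreated wild type arrays. By contrast, *Gbp2* read 5.28, 4.48 and 5.02 in KTR cells and overlapped with wild type (95% interval -1.04 to 0.26).

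*Gvin1* probe 3 read -1.62, -1.58 and -2.39 in KTR cells against -0.48, -0.45 and -0.93 in wild type cells (log2 fold change -1.24, adjusted p = 0.164), whereas probes 1 and 2 of the same gene differed by -0.44 each and overlapped. The probes of *Gvin1* thus disagreed in size between the mutant and wild type cells although they moved alike with p65. With the replicate block, probe 3 was the single probe called lower in KTR cells (adjusted p = 0.0368, background 0.28%).

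*Mpa2l* varied most among the KTR arrays. Replicate 1 read -0.33, near the wild type level, while replicates 2 and 3 read -2.02 and -2.33, within the range of the 0 h arrays (log2 fold change -1.51 ± 0.45 SE, adjusted p = 0.272). KTR replicates 2 and 3 also had the most outlier spots, 212 and 326 against at most 108 elsewhere. Their shares of spots well above background were the lowest, 50.7 and 49.9%. Whether this bears on *Mpa2l* was not tested. With the replicate block the adjusted p of *Mpa2l* was 0.052 and it was not called. Without KTR replicate 1 the log2 fold change was -2.12 with an adjusted p of 0.0143 and *Mpa2l* was called. The other members did not single out this array: on slide 1 *Iigp1* and *Tgtp* probe 1 had their largest differences between KTR and wild type, -1.67 and -1.40. On slide 3 they differed by -0.44 and -0.18, and *Igtp* by 0.00. Within each of the 3 slides 9 of the 10 probes were lower in KTR cells, as were 13.3% of all tested probes.

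The fourth comparison asked the same of K314/315R, with 2 arrays. None of the 10 probes was called in limma, against a background of 1.03% called lower and 0.167% called higher. At an unadjusted p under 0.05 with the same fold 1 probe was lower, against 3.06% of all. The median log2 difference was -0.27, against 0.02 over all tested probes.

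*Mpa2l* read 0.24 and -0.17, within the range of the wild type arrays (log2 fold change 0.09, 95% interval -1.01 to 1.18). *Gbp2* at 5.45 and 4.83 and *Igtp* at 2.87 and 2.36 also overlapped with wild type. *Iigp1* at -0.03 and -0.54 lay below all wild type arrays (log2 fold change -0.84, adjusted p = 0.291), as did probe 3 of *Gvin1* at -1.20 and -2.27 (-1.12, adjusted p = 0.112). These were 2 of the 10 probes, and such a gap held for 17.1% of all tested probes. The sign of small differences depends on the scale here. The median of all probes, dim ones included, lay 0.27 lower in K314/315R than in wild type cells, whereas the tested probes had a median difference of 0.02. After centring each array on its median over all probes *Gvin1* probe 1, *Gvin1* probe 2, *Gbp2* and *Igtp* turned to 0.23, 0.15, 0.10 and 0.08.

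The mutants differ at the lysine K310, which is arginine in KTR and unchanged in K314/315R. In KTR over K314/315R cells none of the 10 probes was called in limma (background 0.492% lower), and 1 was lower at an unadjusted p under 0.05 with the same fold (background 1.06%). That probe was *Mpa2l*, whose 3 KTR arrays all lay below both K314/315R arrays (3.02-fold lower, log2 fold change -1.60, 95% interval -2.69 to -0.50, adjusted p = 0.089). *Iigp2* and *Ifi47* did not overlap either, with log2 differences of -0.47 and -0.43, as in 11.9% of all tested probes. *Mpa2l* was called without KTR replicate 1 (log2 fold change -2.21, adjusted p = 0.0087). For *Gbp2* the interval of the difference was -0.94 to 0.52 and for *Tgtp* probe 1 it was -0.84 to 0.56.

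Set in order of the group means, most members ran from wild type at 3 h over K314/315R to KTR or untreated wild type, and last pTV. For *Gbp2* the means were 5.32, 5.14, 4.93, 4.08 and -0.06 for wild type 3 h, K314/315R, KTR, wild type 0 h and pTV. For *Ifi47* they were 0.08, -0.34, -0.77, -1.13 and -3.62 in the same order. For *Iigp1* untreated wild type (-0.40) lay above KTR (-0.67), and for *Mpa2l* K314/315R (0.04) lay above wild type at 3 h (-0.05). The neighbours wild type 3 h and K314/315R, and K314/315R and KTR, were not called different for any of the 11 probes, KTR and untreated wild type were not compared by a test, and pTV stood apart from every group it was tested against for 10 of the 11.

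Averaged over the brightest probe of the 8 tested members, each centred on its own mean, the pTV arrays lay at -3.52 to -3.24, the untreated wild type arrays at -0.04 to 0.72 and the wild type arrays at 3 h at 1.05 to 1.78. The pTV averages are not exact, since *Mpa2l*, *Iigp1* and *Tgtp* probe 1 were at background on all pTV arrays. The KTR arrays lay at 0.54 to 0.81 and the K314/315R arrays at 1.48 and 0.81. Both wild type groups had their lowest array on slide 3. The 5 genes outside the family whose probes followed this mean most closely over the 14 arrays were *Tyki* (now Cmpk2, r = 0.996), *Casp4* (0.995), *Cfb* (0.993), *2410066E13Rik* (0.993) and *Parp14* (0.991). Since the 3 pTV arrays stand apart, r was also taken over the 11 arrays with p65, where it was 0.914 to 0.941 for these 5.

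The other interferon-inducible GTPases on the array were also higher with p65. Of 27 listed names 11 genes had probes and 7 were tested, and all 7 were called higher with wild type p65 than with pTV (background 3.59%), with a median log2 fold change of 4.51. *Gbp4*, whose accession is now Gbp3, had a log2 fold change of 5.25, *9830147J24Rik*, now Gbp7, of 4.90, *Gbp5* of 4.68 and *Mx2*, a dynamin-like antiviral GTPase, of 4.51. *9830147J24Rik*, *Gbp5* and *Mx2* were each well above background on only 1 of 3 pTV arrays. Their fold changes and the median thus rest partly on signals at background and are not exact. *Mx1*, another of the 7, was well above background on both K314/315R arrays, on 2 of 3 wild type arrays at 3 h and on no KTR, pTV or 0 h array. It was thus tested only through K314/315R, the group where it read highest. It stays in all counts and medians of the 7 with this limit. With TNFα 1 of the 7 was called higher (background 1.12%), *Gbp5* (log2 fold change 2.25, adjusted p = 0.019), a GBP known to promote inflammasome assembly. In KTR cells all 7 means were below wild type (median -0.92) and none was called in limma, with 5 of the 7, *Mx1* among them, more than 1.8-fold lower at an unadjusted p under 0.05 (background 0.812%). In K314/315R cells 5 of the 7 means were below wild type (median -0.28) and none was called, with 1 at an unadjusted p under 0.05 regardless of fold (background 17.4%). The 2 means above wild type included that of *Mx1* (log2 fold change 0.62), a direction that the filter favoured. *BC057170*, now Gbp9 and named here after its value was seen, was the 1 of 7 called lower in KTR than in K314/315R cells (background 0.492%, log2 fold change -1.30, adjusted p = 0.023).

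Genes of interferon signalling differed between wild type and pTV cells as well. Of 19 genes with probes 16 were tested, and 10 were called higher (background 3.59%) and none lower, with a median log2 fold change of 1.08. *Usp18*, a negative regulator of type I interferon signalling, had a log2 fold change of 5.92, *Irf7* of 3.20, *Irf1* of 2.59, *Jak2* of 2.26 and *Isgf3g* (now Irf9) of 2.09. *Usp18* and *Irf7* were each well above background on 2 of 3 pTV arrays. The interferon genes themselves, *Ifnb1* and *Ifng*, were not well above background on any of the 14 arrays. TNFα raised 2 of the 16 (background 1.12%), *Irf1* (log2 fold change 0.87, adjusted p = 0.001) and *Jak2* (1.07, adjusted p = 0.001), and *Irf9* (-0.12) did not pass. In KTR over wild type none of the 16 was called in limma, with *Usp18* alone more than 1.8-fold lower at an unadjusted p under 0.05 (background 0.812%), and the log2 difference was -0.02 for *Irf1*.

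Genes that help load these GTPases onto membranes or attach their lipid anchors gave no calls. These were the ubiquitin-like conjugation genes of autophagy and the prenyl transferase subunits. All 13 with probes were tested, and none was called in limma in any of the 7 comparisons, with log2 fold changes between -0.27 and 0.64. At an unadjusted p under 0.05 and any fold, 3 of the 13 differed between wild type and pTV (background 26.3%), 4 between KTR and pTV (27.9%) and 3 between K314/315R and pTV (37.9%). With TNFα 2 did (17.0%), in KTR over wild type 0 (9.19%), in K314/315R over wild type 1 (17.4%) and in KTR over K314/315R 1 (21.4%). Their median log2 fold change was 0.05 in wild type over pTV cells, 0.06 in KTR over wild type cells and -0.07 with TNFα.

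**Figure D4:**
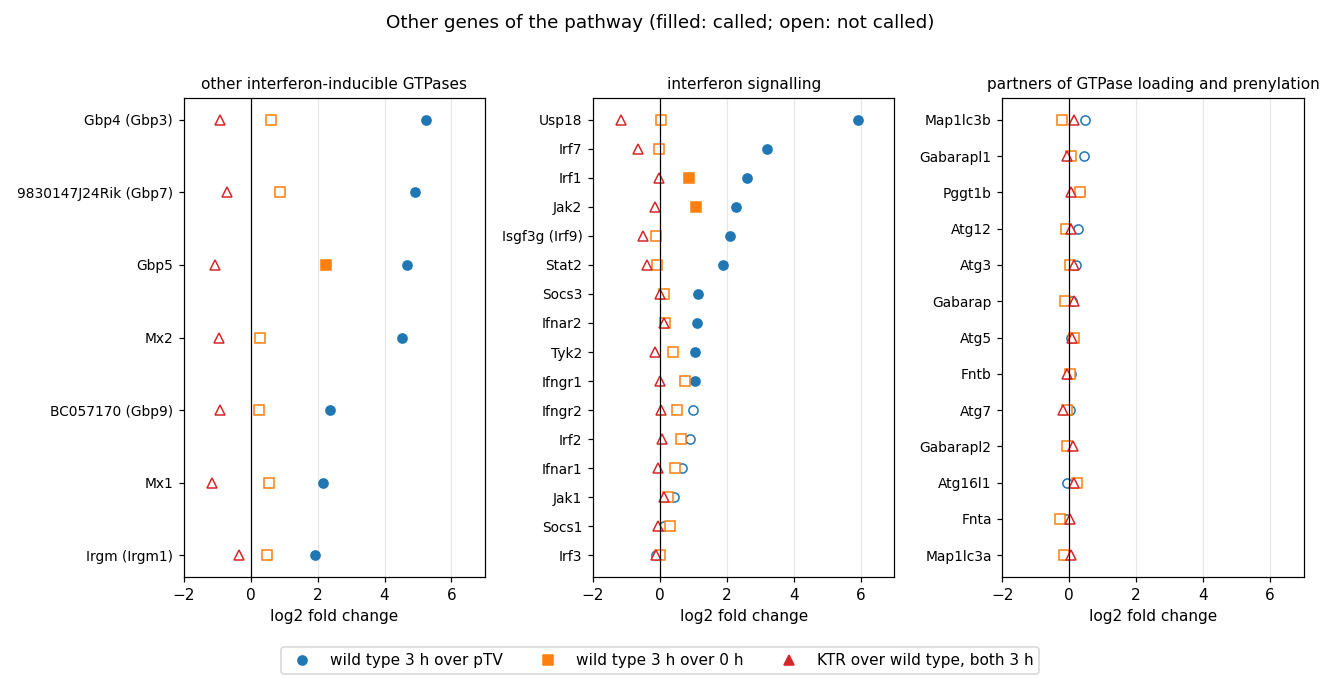
Log2 fold changes (x axis) of the tested genes of 3 lists (rows, 1 probe a gene) in wild type 3 h over pTV (circles), wild type 3 h over 0 h (squares) and KTR over wild type (triangles), filled where called. The circles of all 7 further GTPases and of 10 signalling genes are filled, and no symbol is filled among the 13 loading and prenylation genes.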

How the data were processed

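The authors scanned 1-colour arrays (Agilent Whole Mouse Genome, Cy3) and extracted the spots with Feature Extraction (version 9.1 in the submitters' processing notes). Both K314/315R arrays were extracted with version 9.1.3.1 and all others with version 9.1.1.1. Per the file headers each deposited file holds intensity values per spot, and the processed signal is background-subtracted. The value table deposited with the series held, for at least 99.67% of probes per array within 1%, the mean processed signal times 1 factor per array (0.837 to 1.20), and was used as an alternative. Arrays give no counts, so their number limits the precision.

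From these intensity values log2 of the processed signal minus its 75th percentile on the array was computed over 41174 non-control probes, averaging spots of a probe and leaving out outlier spots. The 22172 probes that stood well above background on all arrays of 1 group or more were fitted in 1 limma model of all 14 arrays (limma 3.58.1, R 4.3.3, Benjamini-Hochberg adjustment); figures used matplotlib. Calls needed an adjusted p under 0.05 and more than 2-fold over pTV or 1.8-fold elsewhere. The fit was tested on simulated data. P-values measure the spread between RNA samples of 1 cell pool.

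On slides 1 to 3 the replicate number marks the slide. Deviations from the group means correlated at 0.308 to 0.613 in all 18 same-number pairs and at -0.510 to 0.0954 in 36 others, so the numbers pair these arrays; with K314/315R, alone on slide 4, same-number pairs gave -0.101 to 0.411, so the number does not pair those arrays. The value with the number as a block is given where it changes a call and for *Mpa2l*, *Gbp2* and *Ifi47*. For K314/315R it is given only with the other alternatives.

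The members, lists and motifs were chosen with earlier results of these data known. Outside the members, genes were named from 3 lists, at most 4 a list by size in wild type over pTV among called probes, beside *Irf1*, *Irf9* and *Ifnb1*; *BC057170*, *Mx1* and *Ifng* were named outside this rule after their values were seen, and 1 gene listed under interferon signalling is not reported here. A name matched the array's gene name or RefSeq's symbol for the accession, which 22951 probes had. Protein sequences were not used here.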

Additional observations from a re-analysis of the deposited data

How the results depend on the processing

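Every alternative kept 10 or 11 probes called higher in wild type over pTV cells, except that testing only probes above background on all arrays left 7 probes, all called; KTR over pTV kept 10 and K314/315R over pTV 9 or 10, likewise with 7 of 7. With TNFα 3 calls became 5 with normexp background correction (leaving out 120 spots below their local background), 5 at an unadjusted p, 4 with the replicate block, 1 with no filter on dim probes, and 0 to 3 when 1 array was left out. For KTR over wild type 0 calls became 1 with normexp, 4 with no filter (*Mpa2l*, *Gvin1* probe 3, *Iigp1* and *Ifi47*, adjusted p of 0.030 to 0.042), 1 with the replicate block, 1 with slide as a random block, 5 at an unadjusted p, and 0 to 1 with 1 array left out (1 without KTR replicate 1). For K314/315R over wild type 0 calls became 1 with the replicate block (*Gvin1* probe 3, adjusted p = 0.0161) and 1 at an unadjusted p, and stayed 0 with slide as a random block and with 1 array left out. For KTR over K314/315R 0 calls became 1 with normexp, median centring, the replicate block (*Mpa2l*, adjusted p = 0.0313) or an unadjusted p, stayed 0 with slide as a random block, and were 0 to 1 with 1 array left out. Where no share of all probes called is given above for a setting and comparison, as for normexp and no filter, none was counted. The member counts at those settings thus have no background. In KTR over wild type the unadjusted p of *Mpa2l* was 0.0079 in limma with no filter and 0.0058 in the main fit. The replicate number does not pair the K314/315R arrays, and the cause of the changes in calls was not tested.

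No called log2 difference of a member changed sign. Of those not called, K314/315R over wild type changed sign 16 times across the alternatives and KTR over K314/315R 12 times, in 6 probes each, and *Tgtp* probe 2 did so 2 times in K314/315R over pTV and 1 time in KTR over pTV. With the replicate block KTR over K314/315R turned to 0.056 for *Gvin1* probe 3 and to -0.11 for *Tgtp* probe 2. In K314/315R over wild type *Mpa2l* turned to -0.17 with the replicate block. Median centring gave 0.23 for *Gvin1* probe 1, 0.15 for *Gvin1* probe 2, 0.10 for *Gbp2* and 0.076 for *Igtp*. With 1 array left out *Mpa2l* ran from -0.13 to 0.36, *Gvin1* from -0.70 to 0.60, *Gbp2* from -0.49 to 0.13, *Igtp* from -0.45 to 0.054 and *Iigp2* from -0.72 to 0.044. The replicate block changed no call of the member probes in the 7 comparisons other than those given above. Signals at background, above all those of *Gbp1* and of *Mpa2l*, *Iigp1* and *Tgtp* probe 1 in pTV cells, limit the folds to bounds.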
